A study of Mus musculus with 4 samples.

Results

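The clustered replication-dependent histone genes of the mouse were examined in sorted cells of fetal gonads. All gene rows whose symbol begins with Hist1h, Hist2h, Hist3h or Hist4h were taken, which gave 68 of 20373 rows. Hist1h2br repeated the values and position of Hist1h2bq and was kept as a single row, which left 67 members of 20299 genes. They comprise 6 linker histone H1 genes, 18 H2A, 18 H2B, 12 H3 and 13 H4 genes, and among them is the pseudogene Hist3h2bb-ps. By cluster, 53 lie in Hist1 on chromosome 13, 10 in Hist2 on chromosome 3, 3 in Hist3 on chromosome 11 and 1 in Hist4 on chromosome 6. All 67 members reached the level filter used for testing, 1 SPM or more in at least 2 libraries. SPM stands for scaled signal per 1000000 of the adjusted library total.

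Each of 4 groups had 1 library: germ cells of male and of female fetuses, and gonadal somatic cells of male and of female fetuses. All came from fetuses at 15.5 days post coitum whose mothers were CF1 and whose fathers carried TgOG2, a transgene with green fluorescent protein under the Oct4 promoter. GFP+ cells were sorted as germ cells and GFP- cells as gonadal somatic cells, so the somatic libraries hold every GFP- cell type of the gonad. Ribosomal RNA was removed instead of selecting poly(A) RNA. The labels do not say how many fetuses were pooled or that the libraries came from separate litters.

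Replication-dependent histone genes supply the histones that package newly copied DNA, and their mRNAs accumulate mainly in S phase. The mRNAs usually end in a conserved stem-loop instead of a poly(A) tail, and the stem-loop binding protein controls their processing, translation and decay. H2A, H2B, H3 and H4 form the nucleosome core, whereas H1 binds the linker DNA between nucleosomes. Hist1h1t (H1t), Hist1h2aa (TH2A) and Hist1h2ba (TH2B) are known as testis-type genes, because their proteins replace the usual forms during spermatogenesis. In the fetal gonad at this age the germ cells of males rest in mitotic arrest, whereas those of females have entered the prophase of meiosis.

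The stem-loop was found in an annotated transcript of 46 of the 68 rows (GENCODE M21), and its stem differed by class. A row without a match need not lack the stem-loop, because its annotated transcript may end too early. The transcripts of Hist1h2bl and Hist1h2aa, for example, were 381 and 390 bases long and had no match. The sequences below are given because they show what the class members share in the part of the mRNA that the binding protein reads. Each is written as DNA with the loop in capitals.
H2A (10 genes), H2B (8), H3 (5) and H1 (3): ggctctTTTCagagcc
H3 (3 genes), H2B (2) and Hist1h1t: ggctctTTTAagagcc
H4 (7 genes): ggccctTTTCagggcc
H4 (2 genes, Hist1h4i and Hist2h4): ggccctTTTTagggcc
H4 (2 genes, Hist1h4j and Hist1h4b): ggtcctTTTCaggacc
Hist1h4a carried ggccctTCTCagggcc. The 12 H4 genes with a match therefore all had a stem other than the ggctct of the remaining classes. The other forms were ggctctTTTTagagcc in Hist2h2ac and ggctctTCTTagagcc in Hist1h3g.

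The 250 bases before the start of 60 members were available from RefSeq (GRCm38.p6). The motifs searched on both strands were the octamer ATTTGCAT, known as the site of the Oct factors in H2B promoters, the TATA element TATAAA and the CCAAT box CCAAT. The octamer was in 13 of 60 members (21.7%), against 1.60% of 32851 promoters of the same length. It was in 7 of 17 H2A and 6 of 15 H2B windows and in 0 of 6 H1, 0 of 10 H3 and 0 of 12 H4 windows. The 13 windows do not hold 13 separate sites, because some H2A and H2B genes start back to back and their windows overlap. The same octamer was counted for both genes in Hist1h2ah and Hist1h2bk, in Hist1h2ae and Hist1h2bg, and in Hist1h2aa and Hist1h2ba. TATAAA was in 48.3% of members against 12.4% of all promoters, and CCAAT in 81.7% against 33.9%. CCAAT was in 100% of H1, H2A and H2B windows but in 3 of 12 H4 windows (25%). The windows below belong to the member with the largest sex ratio in germ cells, to the member with the highest level per kilobase, and to an H2A gene that passed the germ against somatic test. Capitals mark these motifs in either orientation, and each sequence reads 5′ to 3′ towards the gene.
Hist1h2ba, chr13:23934157-23934406, minus strand: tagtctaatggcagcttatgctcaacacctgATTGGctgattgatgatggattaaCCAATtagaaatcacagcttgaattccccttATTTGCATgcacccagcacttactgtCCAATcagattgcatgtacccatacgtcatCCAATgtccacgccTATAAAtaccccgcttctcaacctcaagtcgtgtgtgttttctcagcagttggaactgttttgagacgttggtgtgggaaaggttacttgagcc
Hist1h1a, chr13:23763418-23763667, plus strand: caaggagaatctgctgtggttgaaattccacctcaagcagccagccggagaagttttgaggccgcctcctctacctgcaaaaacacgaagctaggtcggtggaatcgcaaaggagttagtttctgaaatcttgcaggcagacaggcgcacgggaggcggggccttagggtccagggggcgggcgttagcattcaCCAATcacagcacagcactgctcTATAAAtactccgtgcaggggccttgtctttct
Hist2h2ac, chr3:96220881-96221130, minus strand: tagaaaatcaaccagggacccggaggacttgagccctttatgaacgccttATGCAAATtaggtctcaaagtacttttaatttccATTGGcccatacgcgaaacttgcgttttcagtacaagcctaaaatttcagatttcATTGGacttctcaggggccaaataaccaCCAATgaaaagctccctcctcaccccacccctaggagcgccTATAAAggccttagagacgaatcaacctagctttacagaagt
Hist1h2aa starts in the opposite direction on the other side of the Hist1h2ba window, and its own window, chr13:23934187-23934436, covers most of the same bases. None of the motifs contains another. A match is a run of letters and not a measured binding site.

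The deposited values are read signals scaled per library and rounded, and depth was estimated from the spacing of low values at 24.9 M fragments in male germ, 17.5 M in female germ, 17.6 M in male somatic and 24.2 M in female somatic cells (M stands for 1000000). A count of 3 fragments, taken as the floor, equals 0.113 to 0.180 SPM. Intervals beside ratios are exact 95% binomial intervals on estimated fragments and cover counting error only. The sort was checked with 9 germ cell markers, which summed to 7859 SPM in male germ and 4677 in female germ cells, against 57.1 in the male somatic and 11.4 in the female somatic library. The 9 erythroid markers listed in the files summed to 547 SPM in male germ and 182.5 in female germ cells, against 59822 in the male somatic and 22075 in the female somatic library. Hba-a1 and Hba-a2 had nearly equal values in each library, and so did Hbb-b1 and Hbb-b2. Such rows may hold the same reads, so the 9 erythroid markers are not independent and their sum may count globin signal more than once. Under the floor were 1 germ marker in female somatic cells, 1 erythroid marker in male germ cells and 3 erythroid markers in female germ cells. With bulk RNA, fewer cells of a type and less RNA per cell cannot be told apart.

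The male germ library held far less histone signal than the other 3. The 67 members together had 1349 SPM in male germ and 15629 SPM in female germ cells, and 12580 SPM in male somatic and 5991 SPM in female somatic cells. This was 0.135% of the scaled total in male germ and 1.56% in female germ cells, and 1.26% in the male somatic and 0.599% in the female somatic library. The female germ sum was 11.6 times the male germ sum, and the male somatic sum was 2.10 times the female somatic sum. Within males the somatic sum was 9.33 times the germ sum, whereas within females the germ sum was 2.61 times the somatic sum. For the sum over all members, the exact two-sided permutation test of the 2 germ against the 2 somatic libraries gave p = 1. The smallest p this design allows is 0.333, so no such sum can pass.

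**Figure D1:**
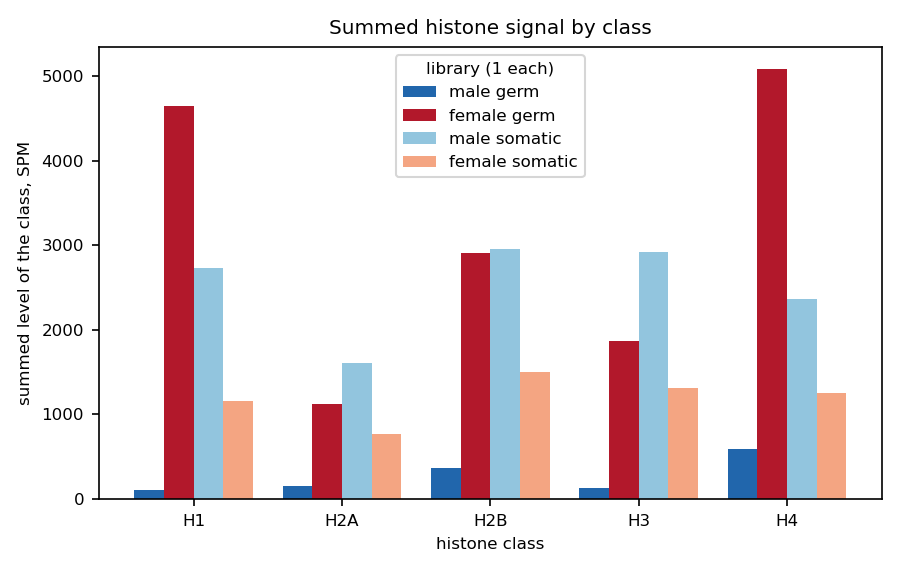
Summed level of each histone class (SPM, vertical axis from 0) in the 4 libraries, 1 bar per library with no replicate error. The male germ bar is the lowest in each class, and the female germ bar is the highest for H1 and H4. For H2A and H3 the male somatic bar is the highest, and for H2B these 2 bars are nearly level.

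The classes shared the low male germ level but differed in which library came highest. H1 summed to 109.7 SPM in male germ and 4643 in female germ cells, against 2726 in the male somatic and 1155 in the female somatic library. H4 summed to 591 SPM in male germ and 5090 in female germ cells, against 2367 in the male somatic and 1254 in the female somatic library. Both classes were therefore highest in the female germ library, at 4.02 times (H1) and 4.06 times (H4) the female somatic sum. Hist1h1a alone made up 3491 of the 4643 SPM of H1 in female germ cells, and 1454 of the 2726 SPM in male somatic cells. Of the 6 H1 genes, 3 were highest in female germ cells and 3 in male somatic cells. H3 summed to 132.9 SPM in male germ and 1869 in female germ cells, against 2921 in the male somatic and 1316 in the female somatic library. H2A summed to 151.9 SPM in male germ and 1119 SPM in female germ cells, against 1611 SPM in male somatic and 768 SPM in female somatic cells. H2B summed to 363 SPM in male germ and 2907 SPM in female germ cells, against 2955 SPM in male somatic and 1498 SPM in female somatic cells. For H2B the female germ sum was 0.984 times the male somatic one, and this order turned under upper-quartile scaling (1.01) and median-of-ratios scaling (1.04). The female germ sum of these 3 core classes was 1.42 times (H3), 1.46 times (H2A) and 1.94 times (H2B) the female somatic sum.

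Male and female germ cells were compared, at an age when male cells are arrested and female cells are in meiosis. Of the 59 members at 5 SPM or more in the higher library, 51 were at least 4-fold lower in male germ cells and 0 were at least 4-fold higher. Among all genes at that level, 10.0% were at least 4-fold lower in male germ cells and 14.0% at least 4-fold higher. At 2-fold the members counted 56 lower and 0 higher, beside 26.3% and 26.8% of all genes. The median member log2 ratio of male over female germ cells was -2.69, against 0.04 over all 14148 genes tested. By class the median was -4.21 for H1, -2.24 for H2A, -2.18 for H2B, -3.44 for H3 and -3.12 for H4. Each sex has 1 germ library, so the ratios lack a replicate check and carry no p-value. Members just past the 4-fold limit were Hist1h2bc (4.07-fold lower in male) and Hist2h2bb (4.30-fold), and those just short of it were Hist3h2a (3.71-fold) and Hist1h2bj (3.59-fold).

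**Figure D2:**
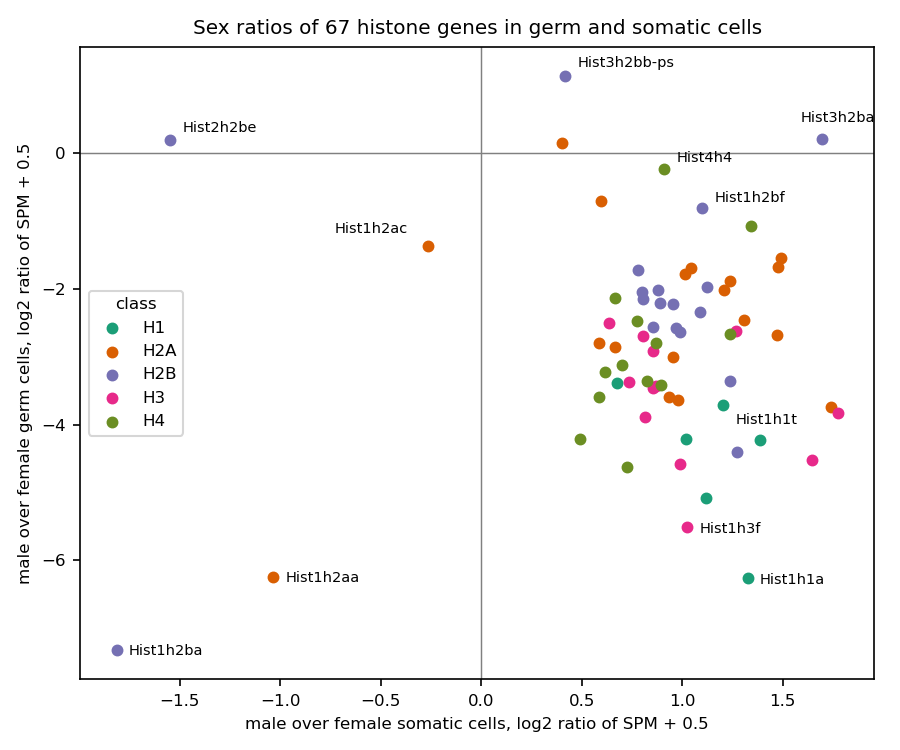
Log2 ratio of male over female germ cells (vertical axis) against log2 ratio of male over female somatic cells (horizontal axis) for 67 histone genes, 1 point per gene, coloured by class. Most points lie in the lower right quadrant, which holds 60 of the 67 genes. Hist1h2ba and Hist1h2aa lie at the lower left and Hist2h2be at the left, just above the horizontal line.

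All 6 linker H1 genes were at least 4-fold lower in male germ cells. Hist1h1a (chr13:23855536-23856283, mm9), which encodes H1.1, had 45.0 SPM in male germ and 3491 SPM in female germ cells, against 1454 SPM in male somatic and 580 SPM in female somatic cells. It was 77.5-fold lower in male than in female germ cells (73.2 to 82.2) and 2.51 times higher in male than in female somatic cells (2.46 to 2.56). Per kilobase of listed length it was the highest of all 67 members, with a mean of 1861 SPM per kb over the 4 libraries. Hist1h1b, which encodes H1.5, had 10.7 SPM in male germ and 209.3 SPM in female germ cells, against 590.4 SPM in male somatic and 225 SPM in female somatic cells. Female germ and female somatic cells thus stood close together for Hist1h1b (0.929 times, 0.890 to 0.969), whereas for Hist1h1a the female germ level was 6.02 times the female somatic one (5.91 to 6.13). Hist1h1e, which encodes H1.4, had 7.07 SPM in male germ and 256 SPM in female germ cells, against 131 SPM in male somatic and 60.3 SPM in female somatic cells, and was 36.3-fold lower in male germ cells (31.4 to 42.3). Its listed span (chr13:23712496-23714427) overlaps Hist1h2be on the same strand, so reads in the overlap may be shared between the rows.

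The makeup of the linker class differed between the libraries. Per kilobase, Hist1h1a made up 52.7% of H1 signal in male germ and 83.6% in female germ cells, against 62.1% in the male somatic and 61.0% in the female somatic library. Hist1h1b made up 13.9% in male germ and 5.57% in female germ cells, against 28.0% in the male somatic and 26.4% in the female somatic library. Hist1h1t made up 19.3% in male germ and 5.32% in female germ cells, against 0.454% in the male somatic and 0.461% in the female somatic library. The 2 somatic libraries lay within 2 percentage points of each other for these 3 genes, and the 2 germ libraries did not. All these shares depend on the listed lengths, which ran from 673 bases for Hist1h1b and 748 for Hist1h1a to 2978 for Hist1h1d. Genes with a long listed length weigh less in them than by SPM.

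All 12 H3 genes were at least 4-fold lower in male than in female germ cells. Hist1h3f (chr13:23635920-23636923) had 9.66 SPM in male germ and 463 SPM in female germ cells, against 183.8 SPM in male somatic and 90.0 SPM in female somatic cells. Its germ ratio, 47.9-fold lower in male (42.4 to 54.5), was the largest of the H3 class. Hist1h3c, the highest H3 gene per kilobase, had 28.6 SPM in male germ and 413 SPM in female germ cells, against 980.2 SPM in male somatic and 286 SPM in female somatic cells. It was 14.4-fold lower in male germ cells (13.4 to 15.6). Hist1h3h had 43.4 SPM in male germ and 249.0 SPM in female germ cells, against 644 SPM in male somatic and 415 SPM in female somatic cells, and was 5.74-fold lower in male germ cells (5.37 to 6.12). Male somatic cells were the highest library for 11 of the 12 H3 genes, with Hist1h3f as the exception.

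Of the 13 H4 genes, 12 reached 5 SPM in a germ library and 11 of these were at least 4-fold lower in male germ cells. Hist1h4d (chr13:23673470-23673782), the highest H4 gene per kilobase, had 167 SPM in male germ and 1061 SPM in female germ cells, against 573 SPM in male somatic and 242.7 SPM in female somatic cells. It was 6.35-fold lower in male germ cells (6.14 to 6.56). Hist1h4m had 117 SPM in male germ and 1205 SPM in female germ cells, against 410.1 SPM in male somatic and 231 SPM in female somatic cells, a 10.3-fold lower male germ level (9.91 to 10.7). Its row overlaps Hist1h4n on the same strand. For 9 of 13 H4 genes the female germ library was the highest of the 4, against 1 of 12 H3, 2 of 18 H2B, 5 of 18 H2A and 3 of 6 H1 genes. The share of all genes highest in that library was not computed. Hist4h4 (chr6:136750073-136752952), the single gene of its cluster, had 26.5 SPM in male germ and 31.1 SPM in female germ cells, against 129.6 SPM in male somatic and 68.8 SPM in female somatic cells. It was 1.18-fold lower in male germ cells (1.05 to 1.32), and this direction turned under upper-quartile scaling, where its log2 ratio was 0.04.

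Of the H2A genes, 13 of 18 reached 5 SPM in a germ library and 9 were at least 4-fold lower in male germ cells, while for H2B these numbers were 16 of 18 and 13. Hist1h2bm had 17.6 SPM in male germ and 382 SPM in female germ cells, against 266 SPM in male somatic and 109.7 SPM in female somatic cells, and was 21.7-fold lower in male germ cells (19.7 to 23.8). Hist2h2aa1 had 19.4 SPM in male germ and 245.5 SPM in female germ cells, against 438 SPM in male somatic and 222 SPM in female somatic cells. Hist2h2aa2 had 13.6 SPM in male germ and 170.0 SPM in female germ cells, against 309 SPM in male somatic and 161 SPM in female somatic cells. These last 2 rows overlap on the same strand and share nearly all their sequence, so they are not independent measurements. Hist1h2ae had 4.12 SPM in male germ and 61.4 SPM in female germ cells, against 56.3 SPM in male somatic and 16.5 SPM in female somatic cells.

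Besides Hist4h4, 4 members had the sex ratios nearest to 1 among those at 5 SPM or more in the higher germ library. Hist3h2ba had 12.6 SPM in male germ and 10.9 SPM in female germ cells, a female over male ratio of 0.863 whose interval (0.719 to 1.04) includes 1. Its somatic levels were 33.6 SPM in male and 10.0 SPM in female cells. Hist1h2bf had 19.3 SPM in male germ and 34.4 SPM in female germ cells, and was 1.78-fold lower in male (1.58 to 2.01). Hist1h2ac had 3.60 SPM in male germ and 10.1 SPM in female germ cells, and was 2.80-fold lower in male (2.17 to 3.64). Hist1h2ao had 5.92 SPM in male germ and 18.3 SPM in female germ cells, and was 3.08-fold lower in male (2.53 to 3.75). Of the Hist3 cluster, 0 of 2 members at 5 SPM passed 4-fold, against 45 of 50 in Hist1 and 6 of 6 in Hist2.

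The 3 testis-type genes were highest in female germ cells, and both germ libraries lay above both somatic libraries only for these 3 members. Hist1h2ba (chr13:24025641-24026025) had 3.26 SPM in male germ and 602.7 SPM in female germ cells, against 0.118 SPM in male somatic and 1.67 SPM in female somatic cells. The male somatic value corresponds to 2 fragments, which is under the floor. It was 185-fold lower in male than in female germ cells (149.5 to 230.7), the largest ratio of any member. Hist1h2aa (chr13:24026330-24026720), its divergent neighbour, had 1.86 SPM in male germ and 179 SPM in female germ cells, against a listed 0 in male somatic and 0.525 SPM in female somatic cells. It was 96.4-fold lower in male germ cells (73.4 to 131.8), and the male germ level was at least 10.3-fold higher than the male somatic floor of 3 fragments. Hist1h1t (chr13:23787679-23788591) had 20.2 SPM in male germ and 271 SPM in female germ cells, against 12.9 SPM in male somatic and 5.34 SPM in female somatic cells. It was 13.4-fold lower in male germ cells (12.3 to 14.7).

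The somatic levels of the testis-type genes were set beside the germ markers found in the same libraries. The summed germ markers in male somatic cells were 0.727% of those in male germ cells, and in female somatic cells 0.244% of those in female germ cells. Hist1h2ba in female somatic cells was 0.278% of its female germ level, and Hist1h2aa was 0.294%. Hist1h1t in female somatic cells was 1.97% of its female germ level and in male somatic cells 64.2% of its male germ level, both above the share of the germ markers. How much of the somatic signal of these genes came from germ cells was not tested.

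Male and female somatic cells differed less than the germ cells, and in the other direction. Of 62 members at 5 SPM or more in the higher somatic library, 0 were 4-fold higher and 0 were 4-fold lower in male cells, beside 3.0% and 3.17% of all genes. At 2-fold, 25 members were higher in male somatic cells and 1 was lower, beside 9.61% and 8.26% of all genes. The median member log2 ratio of male over female somatic cells was 0.91, against 0.01 over all genes. By class the medians lay close together, from 0.78 for H4 to 1.16 for H1. In all, 63 of 67 members were higher in male somatic cells, 63 were lower in male germ cells, and 60 did both. The share of all genes with these directions was not computed. The 2 comparisons use different libraries.

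Among members at 5 SPM or more in the higher somatic library, the largest male over female ratios belonged to Hist1h3c at 3.43 (3.33 to 3.52), Hist1h2ae at 3.42 (3.04 to 3.84) and Hist3h2ba at 3.35 (2.88 to 3.90). The ratios nearest to 1 belonged to Hist1h2ac at 0.823 (0.643 to 1.04), Hist2h2ab at 1.33 (1.2 to 1.47) and Hist1h4f at 1.41 (1.27 to 1.57). Hist1h2ac had 6.55 SPM in male somatic and 7.97 SPM in female somatic cells, which differ by no more than counting error. Hist1h4f had 39.3 SPM in male somatic and 27.8 SPM in female somatic cells, and 2.57 SPM in male germ and 56.2 SPM in female germ cells. Hist2h2be (chr3:96025043-96027661), which encodes an H2B variant known in mouse olfactory neurons, was the only one of these members past 2-fold in the other direction. It had 23.1 SPM in male somatic and 68.4 SPM in female somatic cells, a ratio of 0.338 (0.301 to 0.377).

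Markers of other cell types also differed between the somatic libraries. The summed erythroid markers were 2.71 times as high in male as in female somatic cells and the summed markers of stroma 2.68 times, beside 2.10 times for the histone sum. The summed levels were 747 SPM in male somatic and 320 SPM in female somatic cells for 7 Sertoli markers, and 805 SPM in male somatic and 90.5 SPM in female somatic cells for 5 fetal Leydig markers. The 6 pregranulosa markers went the other way, with 105.9 SPM in male somatic and 1038 SPM in female somatic cells. Among the Sertoli markers only Gata4 was higher in female somatic cells, with 220.6 SPM in male and 277.1 SPM in female. It thus made up most of the female Sertoli sum, whereas Amh had 272.9 SPM in male somatic and 0.38 SPM in female somatic cells. The 6 endothelial markers had no common direction, with a median log2 ratio of -0.08. Their sum was 178.6 SPM in male somatic and 257.5 SPM in female somatic cells, of which Kdr made up 72.8 SPM in male and 182.4 SPM in female somatic cells. Of these lists, 2 pregranulosa markers were under the floor in male somatic cells and 1 fetal Leydig marker was under it in female somatic cells. The part of these cell types in the somatic histone difference was not tested. Between the germ libraries, erythroid markers were 3.0 times and stroma markers 3.94 times as high in male cells, the opposite direction to the histone genes.

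Germ cells were set against somatic cells of the same sex to place the low male germ level. These comparisons share libraries with the comparisons of the sexes above. In males, 54 of 62 members at 5 SPM or more were at least 4-fold lower in germ than in somatic cells and 0 were higher, beside 18.4% and 12.4% of all genes. In females, 10 of 63 members were at least 4-fold higher in germ than in somatic cells and 4 were lower, beside 12.5% and 23.6% of all genes. The median log2 ratio of germ over somatic cells was -3.11 in males and 0.52 in females, against -0.16 and -0.08 over all genes. The 10 members higher in female germ cells were all in Hist1 and comprised 3 H1, 1 H2A, 1 H2B, 1 H3 and 4 H4 genes, with the 3 testis-type genes among them. Without the testis-type genes, 7 of 60 members were higher, near the 12.5% of all genes. The 4 members lower in female germ cells were all in Hist2. Of the 63 members at 5 SPM or more, 50 were in Hist1 and 10 in Hist2.

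**Figure D3:**
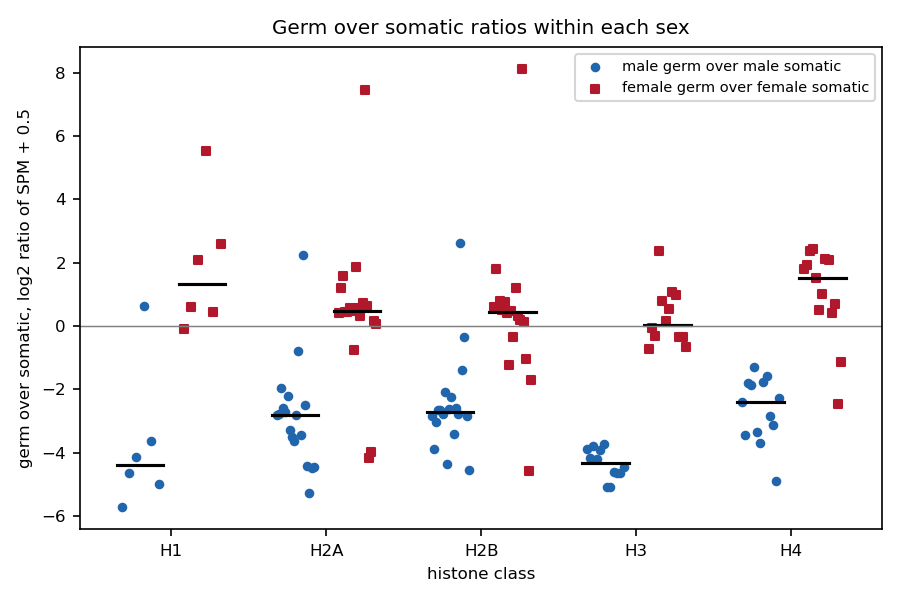
Log2 ratio of germ over somatic cells for each member, by class, in males (blue circles) and females (red squares), 1 point per gene, with black lines at the class medians. The male points lie below 0 except for the 3 testis-type genes, while the female points lie on both sides of 0 with medians from 0.04 for H3 to 1.52 for H4.

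A test across both sexes, in which the male and female libraries of a cell type stand as its samples, gave 2 members lower in germ cells and 0 higher (limma, adjusted p under 0.05). Over all genes the same test gave 5.56% lower and 2.50% higher. Both were H2A genes of Hist2 that lie next to each other. Hist2h2ac (chr3:96024377-96024767) had 1.11 SPM in male germ and 2.13 SPM in female germ cells, against 62.0 SPM in male somatic and 40.8 SPM in female somatic cells, and its log2 ratio of germ over somatic was -4.62 ± 0.69 (SE; n = 2 libraries each; limma adjusted p = 0.0354). Hist2h2ab (chr3:96023838-96024231) had 1.49 SPM in male germ and 1.29 SPM in female germ cells, against 41.6 SPM in male somatic and 31.4 SPM in female somatic cells, and its log2 ratio was -4.28 ± 0.65 (limma adjusted p = 0.0358). For both genes each germ level was below each somatic level, as it was for 33.8% of all genes tested. Hist2h2be had 2.82 SPM in male germ and 2.42 SPM in female germ cells, and its log2 ratio of -3.70 ± 0.78 did not pass (limma adjusted p = 0.0535).

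At an unadjusted limma p under 0.05, 8 of 67 members (11.9%) were lower in germ cells and 0 higher, beside 18.7% of all genes lower and 12.7% higher. The median log2 ratio of germ over somatic was -1.20 over the members and -0.11 over all genes. Calls among members depended on the libraries, and so did calls over all 14148 genes. Leaving out the male somatic library gave 0 members and 64 genes, and leaving out the female somatic library gave 0 members and 74 genes. Leaving out the male germ library gave 5 members and 3597 genes, and leaving out the female germ library gave 10 members and 1801 genes. When low values were not filtered, limma called 0 members and 0 of 18703 genes. With sex as a term in the model the count was 14, of which 11 were lower in germ cells and 3, the testis-type genes, were higher (background 13.8% and 7.73%), from a fit with 1 residual degree of freedom.

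The Hist2 cluster differed from Hist1 in the female libraries. Hist1 summed to 1173 SPM in male germ and 14771 SPM in female germ cells, against 10687 SPM in male somatic and 4973 SPM in female somatic cells, so that the female germ sum was 2.97 times the female somatic one. Hist2 summed to 52.3 SPM in male germ and 512 SPM in female germ cells, against 1265 SPM in male somatic and 741 SPM in female somatic cells, and its female germ sum was 0.691 times the female somatic one. The exact permutation p for Hist2 and for Hist4 was 0.333, the smallest possible. Of the 10 Hist2 members, 6 reached 5 SPM in a germ library, and all 6 were at least 4-fold lower in male than in female germ cells. Hist2h2ab, Hist2h2ac and Hist2h2be were instead near 1 to 3 SPM in the germ libraries of both sexes.

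**Figure D4:**
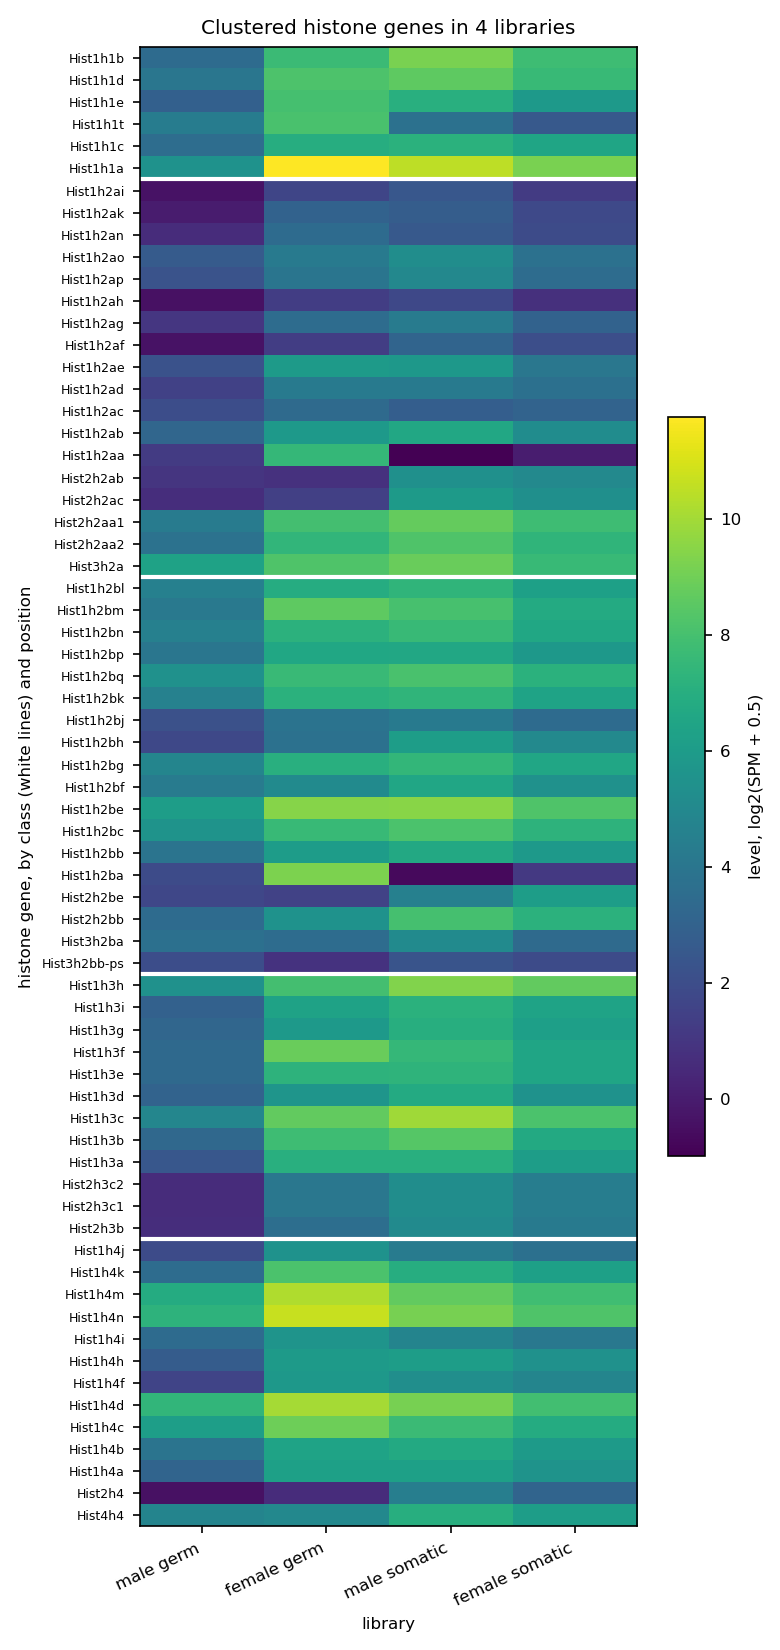
Level of each member, log2(SPM + 0.5), in the 4 libraries, with genes ordered by class (separated by white lines), cluster and position. The male germ column is the darkest for 60 of 67 genes, and the rows of Hist2h2ab, Hist2h2ac and Hist2h2be are dark in both germ columns.

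Across the 4 libraries, male germ cells were the lowest for 60 of 67 members (89.6%), whereas they were the lowest for 27.7% of all genes tested. The highest library was male somatic for 46 members, female germ for 20 and female somatic for 1, Hist2h2be. The share of all genes highest in each library was not computed. Both germ libraries were below both somatic libraries for 16 members, and this was so for 33.8% of all genes tested. Both were above for 3 members, beside 28.5% of all genes.

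Within the Hist1 cluster the members fall into 3 blocks on chromosome 13 (mm9, no gap over 200000 bases within a block). The block at chr13:21807631-21929399 holds 17 members with a median log2 ratio of male over female germ cells of -2.86. The block at chr13:22127034-22135479 holds 5 members with a median of -2.13, and the block at chr13:23622912-24026720 holds 31 with a median of -3.23. The low male germ level was thus found in each block. Among the 49 other genes between the first and the last member, most are vomeronasal receptor genes at or near 0, and 7 passed the level filter. The median log2 ratio of these 7 was -0.23. Of the 4 that reached 5 SPM, Prss16 was at least 4-fold lower in male germ cells, with 3.70 SPM in male germ and 28.0 SPM in female germ cells. Zfp184 was higher in male germ cells, with 106.7 SPM in male germ and 32.3 SPM in female germ cells. Both were named after their values were seen.

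By their listed positions, an H2A and an H2B gene start back to back in 11 places, with 172 to 334 bases between the listed genes. Pairs with long listed spans are missed this way. Hist1h2ao and Hist1h2bq are such a pair, with overlapping promoter windows on opposite strands. Per kilobase, the H2B gene was above its H2A partner in 9 of the 11 pairs in each library. The exceptions were Hist3h2a with the pseudogene Hist3h2bb-ps, and Hist2h2ac with Hist2h2be. Partners also differ in how much of their sequence is found in no other gene, in both directions. That share was 11.6% for Hist1h2ai and 37.9% for Hist1h2bl, but 89.5% for Hist1h2ak and 47.9% for Hist1h2bn. Listed lengths differ too, with 2494 bases for Hist1h2ac and 730 for Hist1h2bc. The part of sequence sharing and listed length in the order of the partners was not tested. In the testis-type pair, Hist1h2aa had 4.75 SPM per kb in male germ and 458 SPM per kb in female germ cells, and Hist1h2ba had 8.48 SPM per kb in male germ and 1566 SPM per kb in female germ cells. The log2 ratios of male over female germ cells were -6.25 for Hist1h2aa and -7.32 for Hist1h2ba. Over the 11 pairs the partners' germ log2 ratios differed by a median of 0.80 and by at most 3.02.

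Members resemble each other in sequence, so the share of 100-base windows found in no other gene was computed from GENCODE M21 transcripts. The median share over the 68 rows was 67.2%, 9 members had every window to themselves, and 24 of the 68 rows had under 50%. The share was 100% for Hist1h1a, Hist1h1b, Hist1h1t, Hist1h2aa, Hist1h4d and Hist2h2be, 98.6% for Hist2h2ab, 93.1% for Hist2h2ac and 72.6% for Hist1h2ba. It was 11.9% for Hist1h4m, 8.01% for Hist1h3h and 0% for Hist2h2aa2, whose own levels are uncertain. The transcripts used often differ in length from the listed genes, with 1249 against 412 bases for Hist1h3d. The share over the bases that were counted may thus differ, and the 50% split need not separate well-mapped rows. The median log2 ratio of male over female germ cells was -2.74 over the 44 members at 50% or more and -2.68 over the 23 members under 50%. In these groups 33 of 39 and 18 of 20 members at 5 SPM or more were at least 4-fold lower in male germ cells.

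Some genes that process and transcribe histone mRNA were also lower in male germ cells, while others were not. The 13 genes of histone mRNA processing summed to 1559 SPM in male germ and 3220 SPM in female germ cells, against 1281 SPM in male somatic and 1113 SPM in female somatic cells. Of these 13, 3 were at least 4-fold lower in male germ cells and 0 higher, beside 10.0% of all genes lower and 14.0% higher. Their log2 ratios ranged from -3.04 to 0.82, with a median of -0.79. Zfp473, which encodes a protein of the U7 particle that cleaves histone pre-mRNA, had 10.3 SPM in male germ and 88.0 SPM in female germ cells. Cstf2, which encodes a subunit of the cleavage complex, had 143.5 SPM in male germ and 667 SPM in female germ cells. Slbp, which encodes the stem-loop binding protein, had 118.5 SPM in male germ and 499 SPM in female germ cells, against 128.7 SPM in male somatic and 124.8 SPM in female somatic cells. Slbp thus had about the same level in male germ cells as in the somatic libraries.

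Of the 7 genes of histone gene transcription, 2 were at least 4-fold lower in male germ cells and 0 higher, beside 10.0% and 14.0% of all genes. The log2 ratios of the 7 genes ranged from -4.20 to 0.53, with a median of -0.90. The 2 genes past 4-fold encode E-type cyclins, which activate CDK2 at the entry to S phase. Ccne2 had 16.7 SPM in male germ and 314.5 SPM in female germ cells, against 27.8 SPM in male somatic and 14.9 SPM in female somatic cells. Ccne1 had 3.29 SPM in male germ and 52.1 SPM in female germ cells, against 16.9 SPM in each somatic library. Npat, the coactivator that cyclin E-CDK2 acts on and which was named after its values were seen, had 85.6 SPM in male germ and 260.8 SPM in female germ cells, under the 4-fold limit.

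Of the 28 genes of S phase, 6 were at least 4-fold lower in male germ cells and 0 higher, beside 10.0% and 14.0% of all genes. The median log2 ratio of the 28 genes was -1.0. The 5 with the largest ratios were Rrm2, a ribonucleotide reductase subunit gene, Gmnn, which encodes the replication inhibitor geminin, Gins2, a replicative helicase gene, Chaf1b, which encodes a chromatin assembly factor subunit, and Tk1, the thymidine kinase gene. Rrm2 had 3.45 SPM in male germ and 31.2 SPM in female germ cells, and Gmnn had 17.2 SPM in male germ and 145.4 SPM in female germ cells. Between somatic libraries the summed S phase genes were 1.55 times as high in male as in female cells, with a median log2 ratio of 0.66, beside 0.91 for the histone genes. The difference between the median of the histone genes and that of the S phase list was not tested.

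**Figure D5:**
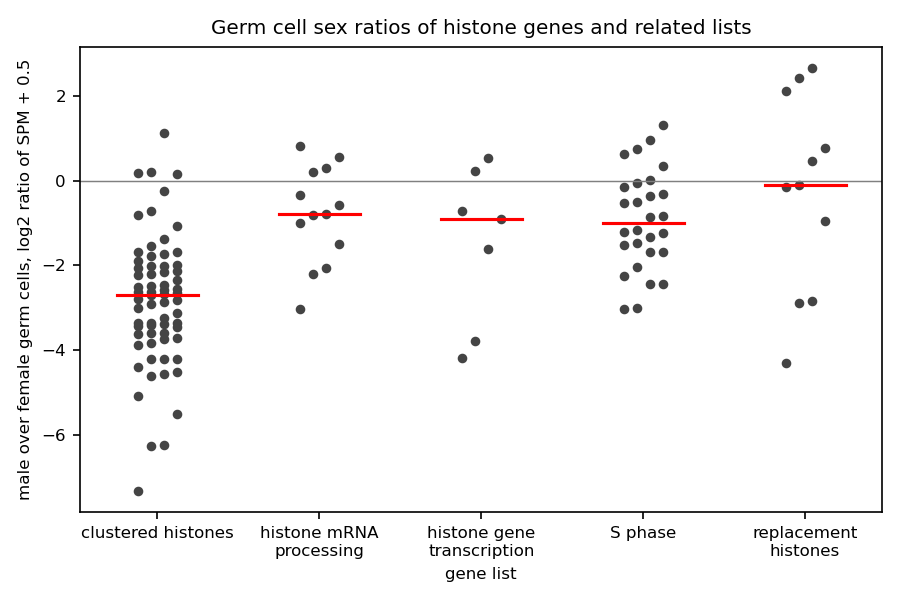
Log2 ratio of male over female germ cells for the 67 clustered histone genes and for the genes of 4 related lists, 1 point per gene, with red lines at the medians. The medians are -2.69 for the clustered histones, -0.79 for mRNA processing, -0.90 for transcription, -1.0 for S phase and -0.09 for replacement histones.

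Replacement histone genes, whose expression is not confined to S phase, were spread over both directions. The 11 genes had a median log2 ratio of male over female germ cells of -0.09. Of these, 3 were at least 4-fold higher and 3 at least 4-fold lower in male germ cells, beside 14.0% and 10.0% of all genes. Those higher in male were H2afv, an H2A.Z gene with 456 SPM in male germ and 71.5 SPM in female germ cells, H3f3a, an H3.3 gene with 233 SPM in male germ and 42.5 SPM in female germ cells, and H2afy2, a macroH2A gene with 13.2 SPM in male germ and 2.64 SPM in female germ cells. Those lower in male included H2afx, whose product is phosphorylated at DNA breaks, with 9.01 SPM in male germ and 187 SPM in female germ cells. The other two were the linker genes H1fx, with 2.04 SPM in male germ and 18.2 SPM in female germ cells, and H1f0, with 19.0 SPM in male germ and 140.0 SPM in female germ cells. Germ against somatic cells, limma called 0 genes in each of these 4 lists at an adjusted p under 0.05, with 2 of 13 genes of mRNA processing, 1 of 7 of transcription, 5 of 28 of S phase and 2 of 11 replacement histones at an unadjusted p under 0.05. Over all genes that share was 31.4%, above the share in each list.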

How the data were processed

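Gene-level RNA signal was deposited for 4 libraries. Per the labels, flow-sorted cells gave RNA that was depleted of ribosomal RNA and sequenced as strand-specific pairs. Per the submitters' processing notes, the tools included TopHat 1.2.0 and CASAVA 1.9, with edgeR (no version), and the build was mm9. How reads were counted, on which annotation and with which strand setting was not given in the sources used here. Deposited signal is headed counts, but 11 whole numbers between 1 and 60 never occur in 2 of the libraries. It was therefore treated as scaled, rounded signal, with no count model. The spacing of low values (4.11 to 6.11) was taken as 1 fragment, and 43.1% to 54.3% of low values lay on it, against 15% to 23.3% by chance.

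Repeated rows, equal in position and in every value, were reduced to 1 row each, which removed 74. SPM used trimmed-mean-of-M factors between 0.945 and 1.07. Germ against somatic was tested with limma 3.58.1 (R 4.3.3, mean-variance trend) on log2(SPM + 0.5), which understates folds of low genes, with Benjamini-Hochberg adjustment over 14148 genes that had 1 SPM in 2 libraries. The script was tested on simulated data. No label gives separate animals for the libraries, and p-values reflect the spread among them alone. Male against female used a rule of at least 4-fold and 5 SPM, with no test. The members and gene lists were chosen with earlier results of these data known. Named members were the testis-type genes, the 2 highest per kilobase in each class, those with the largest and smallest sex ratios, those that passed the test and those against the common direction. Coordinates are mm9 as listed, except for promoters (GRCm38.p6). Alternatives were other scalings, pseudocounts, filters and fold rules, all rows kept, leaving out each library, and sex as a term.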

Additional observations from a re-analysis of the deposited data

Results flagged for a closer look

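The sex ratio of several members and sums went opposite ways in germ and somatic cells, with 1 library per group, so the difference was not tested. Each value here is the log2 ratio of male over female germ cells minus that of male over female somatic cells. For summed signals it was -4.61 over all members, -6.64 for H1, -3.95 for H2A, -3.98 for H2B, -4.96 for H3 and -4.02 for H4. Among linker genes it was -7.59 for Hist1h1a, -6.20 for Hist1h1e, -5.61 for Hist1h1b and -4.92 for Hist1h1t. Among H3 genes it was -6.54 for Hist1h3f, -5.60 for Hist1h3c and -3.14 for Hist1h3h. Among H4 genes it was -4.70 for Hist1h4f, -4.18 for Hist1h4m, -3.90 for Hist1h4d and -1.14 for Hist4h4. Among H2A genes it was -5.49 for Hist1h2ae, -4.61 for Hist2h2aa1, -4.53 for Hist2h2aa2, -3.04 for Hist1h2ao and -1.30 for Hist2h2ac. Among H2B genes it was -5.67 for Hist1h2bm and -1.91 for Hist1h2bf. Hist2h2be went the other way at 1.73, with lower male levels in somatic cells and an interval that includes 1 in germ cells.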

How the results depend on the processing

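The number of members called between germ and somatic cells was the least stable value. It was 2 in the fit reported (1140 of 14148 genes in all), 4 with a filter of 5 SPM (1527 of 11774 genes in all), 0 when low values were not filtered (0 of 18703 genes in all) and 14 with sex as a term (3049 of 14148). Leaving out 1 library at a time gave 0 to 10 calls, with the lone remaining library of a cell type assumed to vary like the others: 5 without male germ (3597 genes in all), 10 without female germ (1801), 0 without male somatic (64) and 0 without female somatic (74). No paired analysis was possible because the labels give no replicate numbers that link libraries, and sex as a term is the nearest fit. For male against female germ cells the median member log2 ratio of -2.69 became -2.43 under upper-quartile scaling, where the median of all genes moved to 0.29. Each scaling divides a whole library by a single factor, so it moves the members and all genes alike. The members' median relative to all genes, between -2.73 and -2.71 under the 4 scalings, was therefore fixed except for the pseudocount. It is no check of the result. For somatic cells the median of 0.91 became 0.78 with library totals alone, where the median of all genes was -0.11. Lowering the fold rule to 2-fold gave 26 somatic members past it instead of 0. The log2 ratio of the summed signal in male over female germ cells, -3.53, was -3.37 with library totals, -3.26 with upper-quartile scaling, -3.49 with median-of-ratios factors, -3.51 with all rows kept, -3.46 without the testis-type genes, -3.22 without Hist1h1a and -3.55 without overlapping rows, the last chosen after seeing the data. In somatic cells the ratio of 1.07 was 0.94, 1.03 and 1.09 under those 3 scalings, 1.04 without Hist1h1a and 1.08 without overlapping rows. Hist4h4 turned: its log2 ratio was 0.0415 in place of -0.23 in germ cells under upper-quartile scaling. The H2B order of female germ and male somatic sums turned under 2 scalings. The cause of these changes was not tested. Of the sex ratios in germ cells 144 stayed within their counting error or call and 23 moved without a change of sign, and in somatic cells 151 and 17. Depth limits Hist1h2aa and Hist1h2ba in somatic cells, where male values are at or under the floor of 3 fragments.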
